A study of Mus musculus with 6 samples.

Results

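SALL4 binding was described at 8 genes of the trophoblast lineage, namely Cdx2, Eomes, Elf5, Gata2, Gata3, Tead4, Ascl2 and Hand1. They were taken from a named list, and every SALL4 interval that overlapped a gene or the 50 kb on either side of it was kept. This gave 25 of 55058 intervals in wild-type replicate 1, 21 of 48295 in wild-type replicate 2, and 0 of 34 and 0 of 39 in the knockout replicates. All 8 genes were found among 21887 coding genes of the RefSeq GRCm38.p6 table, which is the build the submitters' processing notes name.

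The libraries came from mouse embryonic stem cells kept in 2i and LIF, a medium with kinase inhibitors and a cytokine that holds the cells in a naive state. CUT&RUN was used, in which an antibody in permeabilised cells guides a nuclease to release the DNA around its target. The line called wild type is Sall4F/F and carries floxed but intact Sall4, and the other line is Sall4-/-, with 2 SALL4 libraries each. Each genotype is 1 line, and the labels do not say whether the replicates are separate cultures, so the spread between them may be technical. Peak lists hold no expression, and the labelled cell type was not checked against its markers here. At Sall4 itself, with 50 kb on either side, 9 and 8 intervals were called in wild type, against 0 and 0 in the knockout.

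The trophoblast is the outer lineage of the blastocyst and builds most of the placenta. TEAD4, a DNA-binding partner of the Hippo effector YAP, acts at the top of the programme and is needed for Cdx2 expression. CDX2, EOMES, ELF5, GATA2 and GATA3 are transcription factors that establish or maintain trophoblast stem cells, while ASCL2 and HAND1 act in spongiotrophoblast and giant cells. SALL4 is a zinc-finger protein of embryonic stem cells that is thought to keep such genes silent there, and the question was where it sits around them.

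SALL4 intervals lay near all 8 genes in wild type, but none that both replicates shared lay within 1 kb of a start site, which 7.28% of coding genes have. A region was called consensus when each wild-type list had an interval there and neither knockout list did. There were 17 such regions, with at least 1 in each of the 8 windows, where 68.7% of all coding genes have one. Of these, 6 lay inside 3 of the genes (27.6% of coding genes have one inside), 3 within 10 kb of 3 genes, and 8 farther out at 6 genes. The strongest lay inside Cdx2, 0.891 kb from Gata3, 28.7 kb from Ascl2 and 47.7 kb from Elf5, with fold enrichments from 11.6 to 23.4, and no shared region at Eomes, Gata2 or Hand1 exceeded 7.34 in either list. Not all genes held a region under other definitions. Eomes, Gata2 and Hand1 each had 0 at a −log10 q of at least 10, at a fold enrichment of at least 5 and at a −log10 p of at least 8. Elf5 and Gata2 had 0 when summits had to lie within 100 bp, Hand1 had 0 at a reciprocal overlap of at least 50%, and Elf5, Ascl2 and Hand1 had 0 with flanks of 10 kb.

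Starts were taken from RefSeq for 6 of the genes, and for Tead4 and Hand1, which have no entry in that table, both gene ends were used. Of the 21887 coding genes, 17492 had a listed start, and the others were also scored at both gene ends. The nearest consensus region lay 2.64 kb from the start at Cdx2, 10.7 kb at Eomes, 11.0 kb at Elf5, 11.7 kb at Gata2, 16.6 kb at Gata3, 18.1 kb at Tead4, 31.1 kb at Ascl2 and 37.5 kb at Hand1. Thus 0 of 8 genes had a consensus region within 1 kb of a start, beside 7.28% of all coding genes under the same rule. With so few genes, 0 is close to that background. Within 5 kb the count was 1 of 8, the Cdx2 region.

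The promoter of Cdx2, whose protein is the caudal-type homeodomain factor that trophectoderm requires, is shown because it holds letters that match a SALL4 motif and carries no interval. It is given on the gene's own strand, from 250 bases before to 50 bases after the start (chr5:147307200-147307499, minus strand, GRCm38.p6, RefSeq). Capitals mark AATATT, an AT-rich motif known for SALL4, and ATGCAAA, the other strand of the octamer core TTTGCAT that POU factors such as OCT4 read. No interval of any list covers this window, and the nearest wild-type interval ends 2.14 kb away.
Cdx2 promoter: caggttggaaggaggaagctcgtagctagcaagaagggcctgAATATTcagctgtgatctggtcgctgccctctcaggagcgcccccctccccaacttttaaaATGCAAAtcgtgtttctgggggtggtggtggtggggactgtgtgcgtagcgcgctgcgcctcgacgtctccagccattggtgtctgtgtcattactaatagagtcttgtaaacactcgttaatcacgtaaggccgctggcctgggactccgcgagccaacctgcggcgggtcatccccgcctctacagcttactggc

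Only at Cdx2 and Gata2 did RefSeq promoter windows cover SALL4 intervals from these lists, and each belongs to a neighbouring long non-coding RNA. They are shown because they are the interval DNA near the 8 genes whose sequence was used here. The first is the part of an interval 2.61 kb from Cdx2 that lies in the promoter window of Gm35112 (chr5:147298049-147298228, minus strand). The summit of that interval lies just outside the stretch. The second is a whole interval inside Gata2 that lies in the promoter window of Gm38708 (chr6:88197937-88198035, minus strand). Both were called in replicate 1 and not in replicate 2, with 9 and 5 fragments at the summit.
Gm35112 side, Cdx2 window: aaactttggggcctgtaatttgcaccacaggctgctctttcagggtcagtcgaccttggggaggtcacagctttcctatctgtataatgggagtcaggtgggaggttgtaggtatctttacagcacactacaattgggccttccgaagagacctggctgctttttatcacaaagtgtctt
Gm38708 promoter, inside Gata2: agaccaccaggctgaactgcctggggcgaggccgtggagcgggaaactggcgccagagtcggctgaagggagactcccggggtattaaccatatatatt
Neither holds AATATT or TTTGCAT on either strand, which says only that these letters are not in these stretches.

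The second start of Gata2, a zinc-finger factor that binds GATA sequences, is the start closest to an interval. Its window (chr6:88198414-88198713, plus strand, RefSeq) begins 0.379 kb past the weak interval just shown, and 26.3% of its bases are A or T, where 4.78% of all promoter windows have fewer.
Gata2 second start: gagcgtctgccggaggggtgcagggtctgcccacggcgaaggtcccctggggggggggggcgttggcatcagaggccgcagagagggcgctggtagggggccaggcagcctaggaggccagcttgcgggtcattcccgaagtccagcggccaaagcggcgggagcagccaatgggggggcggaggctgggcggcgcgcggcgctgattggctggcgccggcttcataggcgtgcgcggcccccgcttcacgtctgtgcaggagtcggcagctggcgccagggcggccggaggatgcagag

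Motifs were searched on both strands in the 8 promoter windows that RefSeq gives for 6 of the genes and in all 32851 windows of the table. AATATT occurred in 1 of the 8, that of Cdx2, beside 6.81% of all windows. TTTGCAT also occurred in that window only, beside 4.63% of all. GGAATG, the core read by TEAD factors, occurred once at Elf5 and once at the second start of Gata2, beside 14.7% of all, and AGATAA, read by GATA factors, in none of the 8, beside 11.2% of all. AATATT reads the same on both strands, and none of these motifs contains another. Over the whole table, the 1025 windows covered by a consensus region held TTTGCAT in 10.5% (95% Wilson interval 8.80 to 12.6), and the windows not covered held it in 4.44% (4.22 to 4.67). For GGAATG the shares were 18.3% (16.1 to 20.8) and 14.5% (14.2 to 14.9), for AGATAA 11.5% (9.70 to 13.6) and 11.2% (10.8 to 11.5), and for AATATT 5.37% (4.15 to 6.92) and 6.86% (6.59 to 7.14). These limits cover counting error only and treat the windows as independent, although a gene can have several windows that share sequence. A match is a description of letters, not a binding site.

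**Figure D1:**
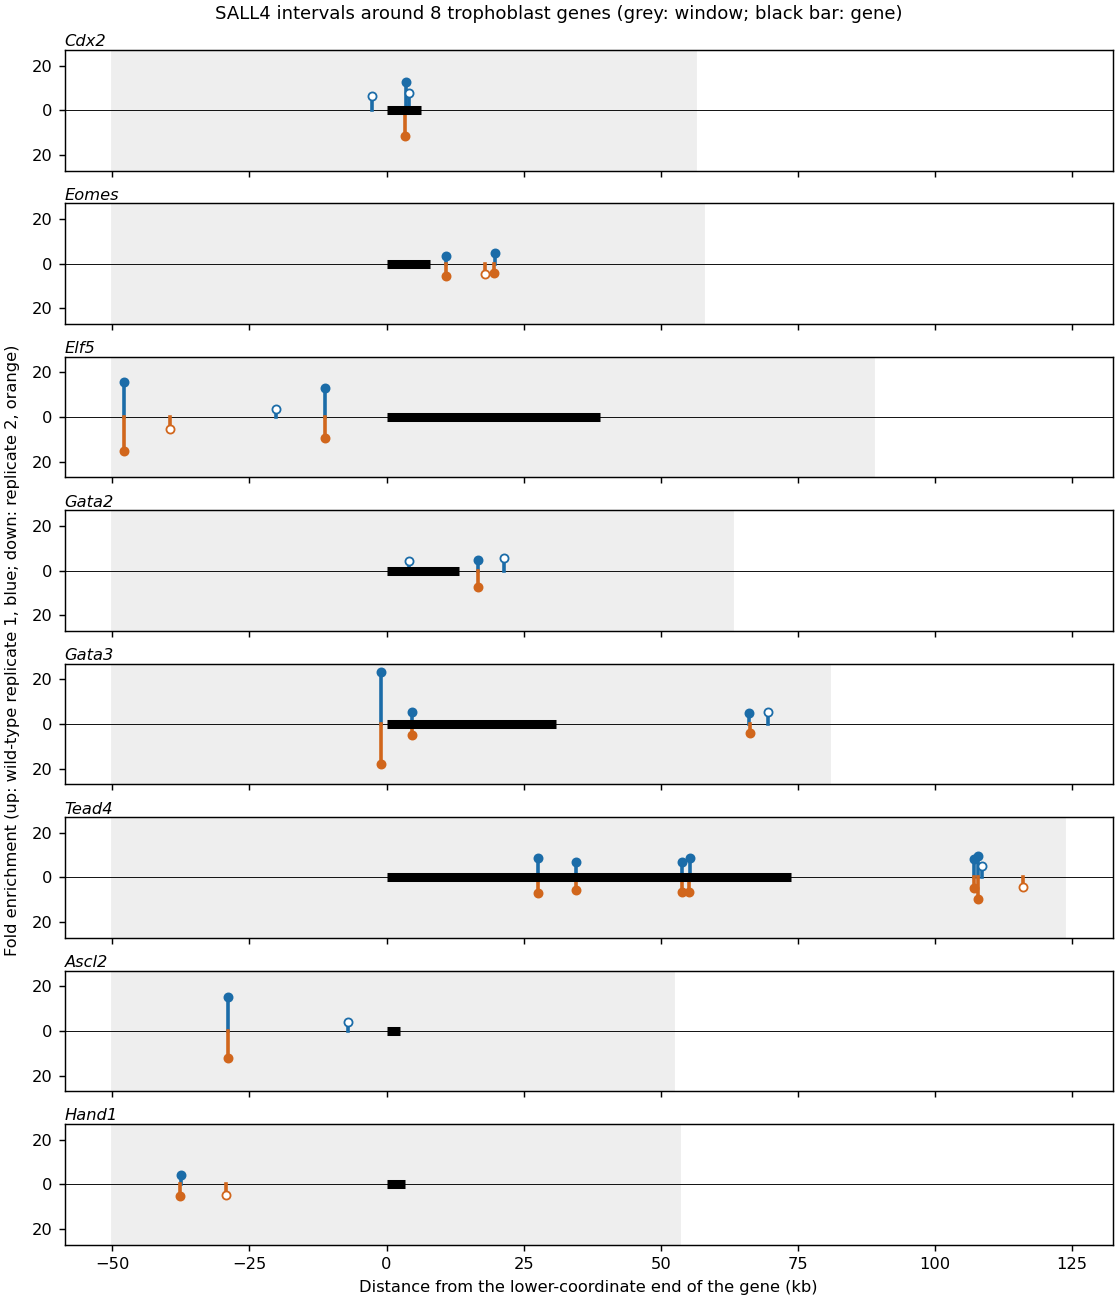
Each panel shows 1 gene (black bar) with its window of 50 kb on either side (grey), and the x axis gives kb from the lower-coordinate end of the gene. Stems point up for wild-type replicate 1 and down for replicate 2, their height is the fold enrichment, and open circles mark intervals absent from the other list; the tallest stems stand at Gata3 (23.4 and 17.7), and the weakest shared sites at Eomes and Hand1 stay under 6.

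The first comparison asked whether the intervals need the Sall4 gene. Tead4 carried the most, with 7 and 7 intervals in wild-type replicates 1 and 2. Gata3 had 4 and 3, Elf5 had 3 and 3, and Eomes had 2 and 3. Cdx2 and Gata2 each had 3 and 1, Ascl2 had 2 and 1, and Hand1 had 1 and 2. Every one of these genes had 0 and 0 in the knockout lists, so the genotypes do not overlap at any of the 8. Such a pattern was common. Each wild-type list held more intervals than each knockout list at 70.6% of coding genes, and a knockout interval lay near only 2 of the 21887. Summed over the 8 windows, wild type had 23.0 ± 2.83 intervals (SD, n = 2) and the knockout 0 and 0. The difference was 4.58 in log2(number + 1), against a spread of 0.17 (SD, log2) between the wild-type replicates. Permuting the 4 libraries exactly (two-sided) gave p = 0.33, the smallest value possible for 2 against 2. The knockout lists had a stricter limit, their weakest −log10 p being 6.61 and 7.12, and 16 of 25 and 15 of 21 wild-type intervals near these genes also passed 7.12. At that limit Hand1 kept 0 and 0 wild-type intervals and Eomes 0 and 1, so wild type and knockout lists then overlap at these genes, while each of the other 6 kept at least 1 in both lists.

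**Figure D2:**
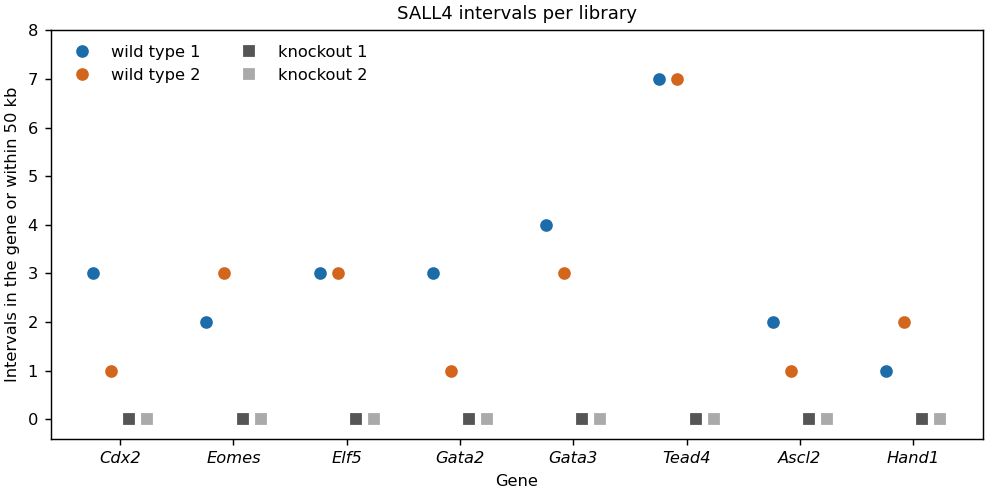
Number of SALL4 intervals in each gene or within 50 kb of it (y axis) by gene (x axis), with 1 point per library. The wild-type points lie between 1 and 7 and the knockout points all lie at 0.

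Among the 8 genes, Tead4 at 7 ± 0 intervals (SD, n = 2) stood above Gata3 at 3.5 ± 0.707 by more than the spread. The neighbours from Gata3 through Elf5 (3 ± 0), Eomes (2.5 ± 0.707), Cdx2 and Gata2 (both 2 ± 1.41) to Ascl2 and Hand1 (both 1.5 ± 0.707) do not differ from the next in order beyond the larger of their spreads. Tead4 also has the longest window, 173.7 kb against 102.4 to 138.9 kb for the other genes. Per 100 kb it still had the highest number, 4.03 in both lists, beside 3.06 and 2.29 at Gata3. Part of the Tead4 count in each list lies in the neighbouring gene Tulp3, 33.3 kb or more away. Of the 6 consensus regions in the Tead4 window, 4 lie inside Tead4.

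The single strongest region lay beside Gata3, which encodes a zinc-finger factor of trophectoderm that acts in parallel to CDX2. Gata3 (gene ID 14462) lies on chromosome 2 at 9857078 to 9887953, and the region at chr2:9855835-9856187 lies 0.891 kb beyond its lower-coordinate end. As the gene is read from the minus strand, that is past its 3′ end, 22.4 kb from the listed start. That start, at 9878600, lies inside the gene as the gene table draws it, so both this distance and the 16.6 kb above depend on it. From the higher-coordinate end of the gene the nearest consensus region lies 26.0 kb away. The fold enrichment of the region past the 3′ end, a ratio deposited by the authors, was 23.4 in replicate 1 and 17.7 in replicate 2. It fits summit pileup over background with 1 added to each. The pileups were 33 and 25 fragments, the recovered backgrounds were 0.452 and 0.471, and the summits were 1 bp apart. The fold enrichments were at or above 97.8% and 95.1% of the values in their lists. Gata3 had 2 further consensus regions, 1 inside the gene with 5.51 and 4.70, and 1 at 35.2 kb that lies in Taf3, a gene for a subunit of the general factor TFIID, with 4.82 and 4.08.

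At Cdx2 the shared site was inside the gene. Cdx2 (gene ID 12591) lies on chromosome 5 at 147300900 to 147307249 and is read from the minus strand. The region at chr5:147304136-147304605 had fold enrichments of 12.7 and 11.6, on 24 and 22 fragments, with summits 7 bp apart. It is the consensus region closest to a start among the 8 genes, and its values stand at the percentiles 87.6 and 86.3 of their lists. Replicate 1 held 2 more intervals here, 1 inside the gene (7.58) and the one near Gm35112 (6.35), and replicate 2 held neither. The gene table used has no exons, so exon or intron was not assigned.

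Elf5, an ETS factor that holds cells in the trophoblast lineage and is known to be methylated in embryonic stem cells, had its sites on 1 side only. Elf5 (gene ID 13711) lies on chromosome 2 at 103412098 to 103450989, on the plus strand. The region at chr2:103400586-103401124, 11.0 kb upstream, had fold enrichments of 13.1 and 9.52. The region at chr2:103363884-103364435, 47.7 kb upstream and inside the non-coding gene A930006I01Rik, had 15.8 and 15.0. The replicates' summits were 131 and 123 bp apart in these regions, so neither counted when summits had to lie within 100 bp. Their percentiles within the lists run from 80.1 to 92.2, and no interval lay inside Elf5 in either list.

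The Ascl2 window held 1 strong shared region. Ascl2 (gene ID 17173), a basic helix-loop-helix gene that is imprinted in the placenta, lies on chromosome 7 at 142966822 to 142969264. The region at chr7:142937779-142938170 had fold enrichments of 15.2 and 12.2 on 21 and 17 fragments. It lies 28.7 kb beyond the lower-coordinate end in no annotated gene, and Ascl2 is the nearest coding gene. A second interval, 6.91 kb from the gene on the same side, appeared in replicate 1 alone with 4.13.

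Tead4 had several regions, none of which reached a fold enrichment of 10. Tead4 (gene ID 21679) lies on chromosome 6 at 128227143 to 128300813, and 4 consensus regions lay inside it. Their fold enrichments were 8.89 and 6.88, 7.11 and 5.63, 6.81 and 6.38, and 8.79 and 6.67 in replicates 1 and 2, in order of coordinate. These lie close to one another and differ by about as much between replicates as between regions. The highest in the window, chr6:128334642-128335246, had 9.65 and 9.44 but lies in Tulp3, a gene for a Tubby-family protein, 33.8 kb from Tead4, with another region (8.13 and 4.70) beside it.

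At Eomes, Gata2 and Hand1 no shared region in the window stood above the median fold enrichment of both lists, 5.86 and 5.56. For Eomes this rests on the window edge, as intervals with 20.7 and 17.7 lay 51.4 kb from the gene. Eomes (gene ID 13813, chromosome 9, 118478186 to 118486132) encodes a T-box factor of trophoblast stem cells, and its 2 regions lay 2.78 and 11.7 kb past the gene. The nearer, in the non-coding gene Gm33460, had fold enrichments of 3.44 and 5.44 on 4 and 7 fragments, and the farther had 4.82 and 4.08 on 6 and 5. The percentiles of these values were 7.47 and 48.2 for the nearer and 35.7 and 23.6 for the farther. Gata2 (gene ID 14461, chromosome 6, 88193891 to 88207032) had 1 region 3.30 kb past the gene, with 4.57 and 7.34 on 8 and 10 fragments, at the percentiles 26.6 and 66.6 of their lists. Hand1 (gene ID 15110, chromosome 11, 57828713 to 57832147), which encodes a basic helix-loop-helix factor of giant cells, had 1 region 37.5 kb away with 4.06 and 5.0 on 7 and 7 fragments, at the percentiles 15.8 and 37.6. That region lies 3.47 kb from Galnt10, a glycosyltransferase gene, and so nearer to it than to Hand1.

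**Figure D3:**
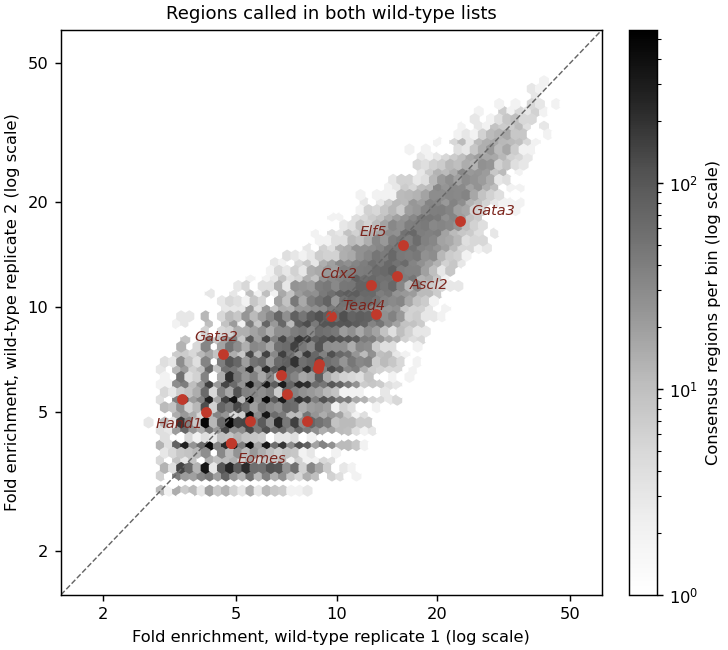
Fold enrichment in wild-type replicate 1 (x axis) and replicate 2 (y axis), both on log scales, for all 37997 consensus regions (grey bins, darker for more regions) and the 17 near the trophoblast genes (red, with the strongest of each gene named). The red points run from 3.44 and 5.44 at an unnamed Eomes region to 23.4 and 17.7 at Gata3, and the grey bins reach higher on both axes. The dashed line marks equal values.

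The 17 regions were set beside all consensus regions, which include them, and no test was made. Their median fold enrichments were 8.13 and 6.67 in replicates 1 and 2, beside 7.11 and 6.54 for all 37997. Both values reached 10 in 4 of the 17 (Gata3, the far Elf5 region, Ascl2 and Cdx2), which is 23.5% beside 21.2% of all. Their median width was 353 bp beside 327 bp, and the replicates' summits lay within 100 bp of each other in 12 of 17, 70.6% beside 84.8%. Fold enrichment was higher in replicate 1 in 14 of 17, 82.4% beside 65.2% of all, although values of separate lists were scaled separately.

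Agreement between the replicates was also near that of the whole lists. Of the 25 replicate 1 intervals, 17 recurred in replicate 2, or 68.0% (Wilson 95% limits 48.4 to 82.8) beside 70.4% for the whole list. Of the 21 replicate 2 intervals, 17 recurred in replicate 1, or 81.0% (60.0 to 92.3) beside 79.3%. These limits cover counting error only. The 8 and 4 intervals seen in 1 list alone had median fold enrichments of 5.30 and 4.73, and none exceeded 7.58. The member intervals sat at a median percentile of 57.5 and 50.7 of their own lists, near the middle.

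The density of consensus regions was then set beside that of all coding genes. The 3 genes with a region inside were Cdx2, Gata3 and Tead4. The median over the 8 was 1.21 regions per 100 kb, beside 0.970 over all coding genes (quartiles 0 and 2.68). Pooled over the windows, which cover 976.8 kb, the density was 1.74 per 100 kb beside 1.86, a ratio of 0.935. The side of 1 on which this ratio lay depended on the settings, as it was 1.41 with flanks of 10 kb and 1.12 at a −log10 q of at least 10. Tead4 had 3.45 per 100 kb, above 82.2% of coding genes, from 6 regions. At that q-value 1 of them was left, which lies inside Tulp3, while Elf5 kept 2. Gata3 had 2.29 per 100 kb (above 71.1%) and Eomes 1.85 (above 64.5%). Elf5 had 1.44, and Ascl2, Hand1, Cdx2 and Gata2 lay between 0.884 and 0.976, each with 1 region in its window.

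**Figure D4:**
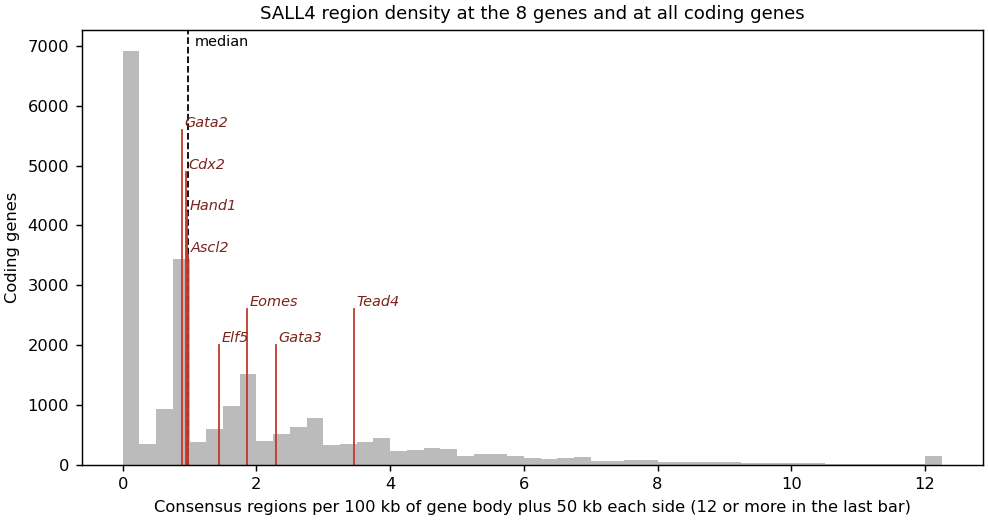
Histogram of consensus regions per 100 kb (x axis) over 21887 coding genes (y axis, number of genes), with the 8 trophoblast genes as red lines whose heights only separate the names. The dashed line marks the median of 0.970; Gata2, Cdx2, Hand1 and Ascl2 lie beside it and Tead4 is farthest right at 3.45.

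The window edge of 50 kb left out some strong sites. Just inside it, within 10 kb, lay the far Elf5 region (15.8 and 15.0) and a replicate 2 interval at Tead4 (4.08). Just outside lay an interval 51.4 kb from Eomes with 20.7 and 17.7, one 51.0 kb from Elf5 with 16.2 and 12, and weaker ones at Eomes, Elf5, Cdx2 and Hand1 with 3.81 to 7.11. Of the 17 consensus regions, 12 had the trophoblast gene as their nearest coding gene, and the other 5 lay nearer to or inside Golga4, Taf3, Tulp3 or Galnt10.

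Genes that work with the 8 in the same lineage were described in the same way, and no list was tested against another. The counts below stand beside 68.7% of all coding genes with a consensus region in the window, 7.28% with one within 1 kb of a start, and a median of 0.970 per 100 kb. In the Hippo and TEAD pathway, which relays cell position to Cdx2, 9 of 12 genes had a consensus region, a share near that of all coding genes, with a median of 3.25 per 100 kb. Tead1 (10.1 per 100 kb) and Wwtr1, which encodes the YAP paralogue TAZ (7.26), had the most, and each also had one within 1 kb of a start. Tead2, the kinase gene Lats1 and the YAP-binding gene Amot had none. Amot did have 2 and 2 wild-type intervals, but the replicates did not share them. Tead4 at 3.45 lay between its paralogues Tead1 and Tead3 (0.839).

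In the trophoblast stem cell network, 12 of 12 genes had a consensus region, with a median of 4.36 per 100 kb. Klf5, a Krüppel-like factor used by both embryonic and trophoblast stem cells, had the most at 17.4, followed by the signalling gene Bmp4 at 11.2. Klf5 held 29 and 27 wild-type intervals and 0 and 0 in the knockout. A region within 1 kb of a start was present at 3 of the 12, the AP-2 factor gene Tfap2c, Id2 and Zfp42. Several genes of this list, such as Sox2, Esrrb and Zfp42, are also active in embryonic stem cells.

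In placental differentiation, a list of genes of later placental cells, 7 of 12 genes had a consensus region, near the 68.7% of all coding genes, with a median of 0.635 per 100 kb. Tfap2a, an AP-2 factor gene, had 4.02 and the imprinted gene Peg10 had 2.65. Dlx3, Phlda2, Tpbpa, Prl2c2 and Synb had none, where Tpbpa marks spongiotrophoblast and Synb encodes a syncytin that fuses trophoblast cells. Phlda2 did have 3 intervals in wild-type replicate 1, and 0 in replicate 2. Prl2c2 belongs to a family of near-identical copies, where reads can map to several places, so its 0 is uncertain. Among trophectoderm epithelium genes 8 of 11 had one, with a median of 1.93. The sodium pump subunit gene Atp1b1 (10.7) and Cdh1, for E-cadherin (8.39), had the most, and Krt7, Krt19 and Dab2 had none. Krt7 did have 0 and 1 wild-type intervals and Dab2 1 and 1, which the replicates did not share. No gene of either list had a consensus region within 1 kb of a start.

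For orientation, 3 lists of other kinds were counted. The core pluripotency factors had a median of 7.47 per 100 kb, with Sox2 at 8.78, Nanog at 7.47 and Pou5f1 at 0.955. The mesoderm and endoderm regulators had a median of 0.845, with a consensus region at 6 of 10 genes beside 68.7% of all coding genes. Gsc (5.88) and Gata4 (1.16) had the most there, and T, Mixl1, Tbx6 and Sox7 had none. T did have 1 and 1 wild-type intervals, which the replicates did not share. The ribosomal protein genes had a median of 2.91, with a consensus region at 8 of 10 genes beside the same 68.7%. The most were at Rpl32 (5.81) and Rpl4 (5.70), and none at Rpl10a and Rpl13a. Rpl13a did have 4 and 0 wild-type intervals. Nanog, Rpl3 and Rpl32 also had a consensus region within 1 kb of a start, and no mesoderm or endoderm regulator did. The trophoblast median of 1.21 lies between those of the mesoderm and endoderm regulators and the ribosomal protein genes.

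**Figure D5:**
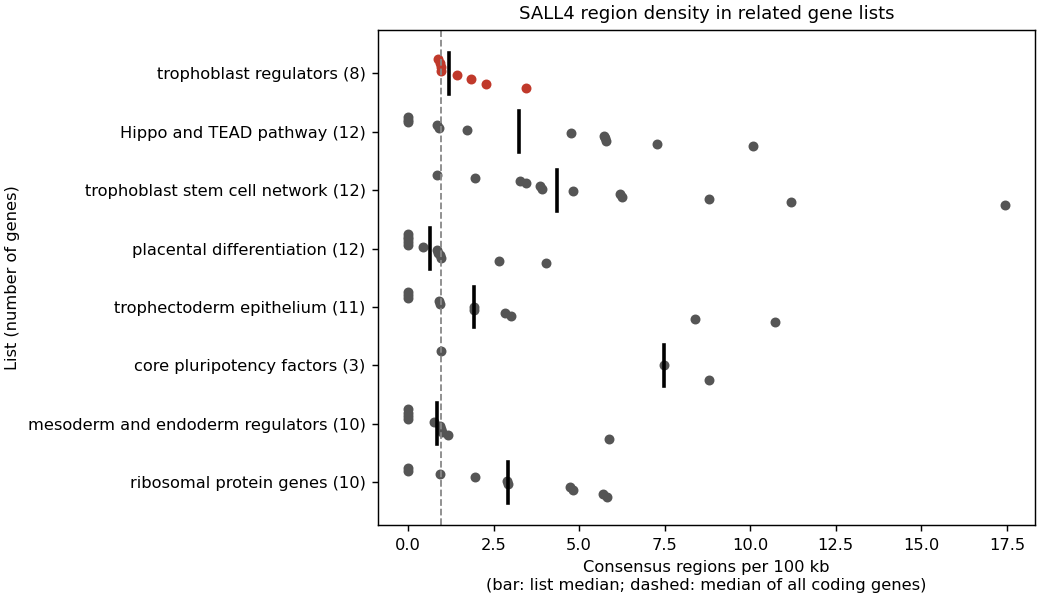
Consensus regions per 100 kb (x axis) for every gene of each list (1 point per gene, list size in brackets), with the list median as a black bar and the median of all coding genes as a dashed line. The 8 trophoblast regulators (red) lie between 0.884 and 3.45, and the widest range, 0.843 to 17.4, is that of the trophoblast stem cell network.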

How the data were processed

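The 4 SALL4 peak lists, 1 per library, were used, and the 2 IgG samples were not analysed here. Per the submitters' processing notes, Trim Galore 0.6.0, cutadapt 1.18, FastQC 0.11.8, BWA 0.7.17 and MACS2 2.1.1.20160309 were used with GRCm38, and settings and controls are not given in the sources used here. The authors deposited a fold enrichment (a ratio) for each summit, a −log10 p-value, a −log10 q-value, a score (10 times the −log10 q-value, cut to a whole number) and a summit offset.

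Overlapping lines of a list were merged, keeping the highest fold enrichment. The lists give no read totals. Fragments at a summit were recovered as the whole pileup that explains both fold enrichment and p within 0.0001 (−log10), for 25 of 25 and 21 of 21 member intervals. For this the fold enrichment was read as pileup over background with 1 added to each. The depth of a library was not recovered, and most sites rest on few fragments (medians of 10 and 10 at the member intervals). Windows and overlaps needed 1 bp. Numbers were compared as log2(number + 1) by an exact permutation test. Counting code was tested on simulated data. The 8 genes, the lists and the tests were chosen with earlier results of these data known. The named sites are each gene's strongest consensus region by its worse rank and any within 1 kb of a start, and in the lists the 2 densest genes and those with none. Other sites and genes were named for description after their values were seen. The trophectoderm epithelium list was first set with 1 more gene, which is not reported here for a reason that does not concern its values. Gene coordinates and promoter sequences are from RefSeq GRCm38.p6. Python 3.11.15, numpy 2.4.6, pandas 2.3.3 and scipy 1.17.1 were used.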

Additional observations from a re-analysis of the deposited data

How the results depend on the processing

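The excess of intervals in wild type ranged from 3.13 (−log10 q of at least 10) to 5.14 (100 kb flanks) in log2 over the 11 alternatives. With 0 and 0 knockout intervals in the 50 kb windows, stricter limits, narrower flanks or a left-out library could not turn its direction, so that is no sign of stability. With same-numbered libraries as a block the difference was 4.58, where exact flipping of signs gave p = 0.5 and cannot go lower with 2 pairs. Whether same-numbered libraries pair was not tested, as each gives 1 value.

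The 17 consensus regions became 6 at a −log10 q of at least 10, 10 at a fold enrichment of at least 5, 9 when −log10 p was held to at least 8 in every list, 9 with 10 kb flanks and 26 with 100 kb flanks. The windows of Cdx2, Gata3 and Tead4 kept at least 1 under each of the 11 alternatives, but at the strict q-value Tead4 fell from 6 to 1 and Gata3 from 3 to 1. The 1 left at Tead4 lies inside Tulp3, 33.8 kb away, and no region inside Tead4 was left. The number of genes with a consensus region at the start, 0, was 1 within 5 kb (Cdx2), and 0 to 1 with a library left out. The 1 is Gata2, from the weak replicate 1 interval near its second start that counts once wild-type replicate 2 is left out.

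The density ratio of 0.935 was 1.12 at the strict q-value, 0.852 at the fold enrichment limit, 0.963 with a reciprocal overlap of at least 50%, 0.772 with summits within 100 bp, 1.41 with 10 kb flanks, 0.786 with 100 kb flanks and 0.904 against coding genes with windows of like length. It was 0.901 to 0.935 with a library left out. It thus lay on either side of 1, and the cause was not tested. The mean share of intervals found in the other list, 74.5%, was 65.1% at the fold enrichment limit and 52.6% with summits within 100 bp, which accepts fewer pairs by construction. The mean of the median percentiles of strength, 54.1, was 48.9 at the strict q-value, 59.4 with 10 kb flanks and 64.5 with 100 kb flanks. With 1 wild-type list there is no such share.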
